A study of Mus musculus with 20 samples.

Results

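Complement is a set of plasma and cell surface proteins of innate immunity, and 9 of its genes were followed here in bone marrow and kidney of mice given oxaliplatin. They were C1ra, C1s1, C4b, C2, C3, Cfb, Serping1, C3ar1 and C5ar1, taken by gene symbol from the count tables of both tissues, and all 9 were found among the 55486 genes listed in each table. In bone marrow C4b, Serping1 and C3ar1 were higher after oxaliplatin, and in kidney C3, C1ra, C1s1 and Serping1 were higher. Serping1 was called in both tissues. C3 rose about 7.01-fold in kidney. In bone marrow it was the most abundant of the members whose levels were compared, which leaves out C2 and Cfb. It did not pass the test there with the settings used throughout. Of 18 refits 1 called C3 lower there, that with a covariate of Y-linked genes.

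All mice were C57BL/6, of both sexes according to the methods, and were 10 weeks old when treatment began. The vehicle group received 5% dextrose and the oxaliplatin group received 10 mg/kg oxaliplatin in 5% dextrose, both by intraperitoneal injection over 8 weeks. Oxaliplatin is a platinum chemotherapy drug that forms DNA adducts. Marrow came from tibia and femur 6 days after the final dose, and the methods do not describe how kidneys were taken. There were 5 libraries per tissue and treatment, 20 in all, each labelled as a biological replicate. The labels name no transgene or mutation. They give no sex either. All 4 Y-linked genes examined were expressed in each of the 20 libraries, with 752 to 2460 counts in bone marrow and 396 to 1097 in kidney. Each library thus held RNA from males, although the methods name both sexes. Their mean log2 CPM stayed between -0.60 and 0.21 around its average in the 10 marrow libraries and between -0.23 and 0.26 in the 10 kidney libraries. In bone marrow it was 0.07 to 0.21 in the vehicle libraries and -0.02, -0.20, 0.11, 0.07 and -0.60 in treated libraries 1 to 5. A covariate of these genes therefore did not separate the sexes, and in bone marrow it partly followed treatment. The labels do not say whether a kidney and a marrow library came from the same mouse, and marrow RNA went through TRIzol before the column while kidney RNA did not, so tissue and extraction cannot be told apart. The number of reads counted per library lay between 30660153 and 41140527 in bone marrow and between 24393007 and 30925430 in kidney.

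Complement can be started along the classical, lectin and alternative routes. In the classical route the recognition protein C1q carries the proteases C1r and C1s, which cleave C4 and C2. In the alternative route factor B pairs with C3b and is cut by factor D. The lectin route starts from collectins and ficolins that bind sugars. All lead to cleavage of C3, to deposits of C3b on surfaces, to the small peptides C3a and C5a, and to the pore of the terminal components. The liver makes most circulating complement, while macrophages, neutrophils, fibroblasts, adipocytes and tubular cells make some of it locally. C1 inhibitor, the product of Serping1, blocks C1r and C1s, and the receptors encoded by C3ar1 and C5ar1 bind C3a and C5a on myeloid cells.

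Levels are given as TMM-scaled CPM, the counts of a gene relative to the total of its library after libraries were scaled to each other. Groups were compared with edgeR's quasi-likelihood test, and genes were called where the Benjamini-Hochberg adjusted p was under 0.05 and the change exceeded 1.5-fold. In bone marrow 8 of the 9 genes had enough counts to be tested, and 3 were called, all higher. Oxaliplatin changed much of the marrow transcriptome, and 23.3% of all 22363 tested genes were called there, 11.6% higher and 11.8% lower. With the adjusted p alone the share was 33.1%. In kidney all 9 genes were tested and 4 were called, all higher, against 11.5% of 19293 tested genes, 7.68% higher and 3.81% lower, and 29.4% by the adjusted p alone. With so few members these shares are a background for the counts and not a test of them.

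Groups that do not overlap, with each of the 5 oxaliplatin libraries on one side of each vehicle library, were counted as well. This held for the 3 called genes in bone marrow, against 24.9% of all tested genes (11.4% higher, 13.5% lower). In kidney it held for the 4 called genes, against 20.7% (9.69% higher, 11.0% lower). The median log2 fold change of the tested members was 0.46 in bone marrow and 0.76 in kidney, beside -0.04 and 0.02 over all tested genes. With libraries scaled by their total alone the medians over all genes became 0.11 and 0.16, and among called genes those that were higher went from 49.6% to 63.4% in bone marrow and from 66.8% to 82.7% in kidney. Called members kept their direction under that scaling too.

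**Figure D1:**
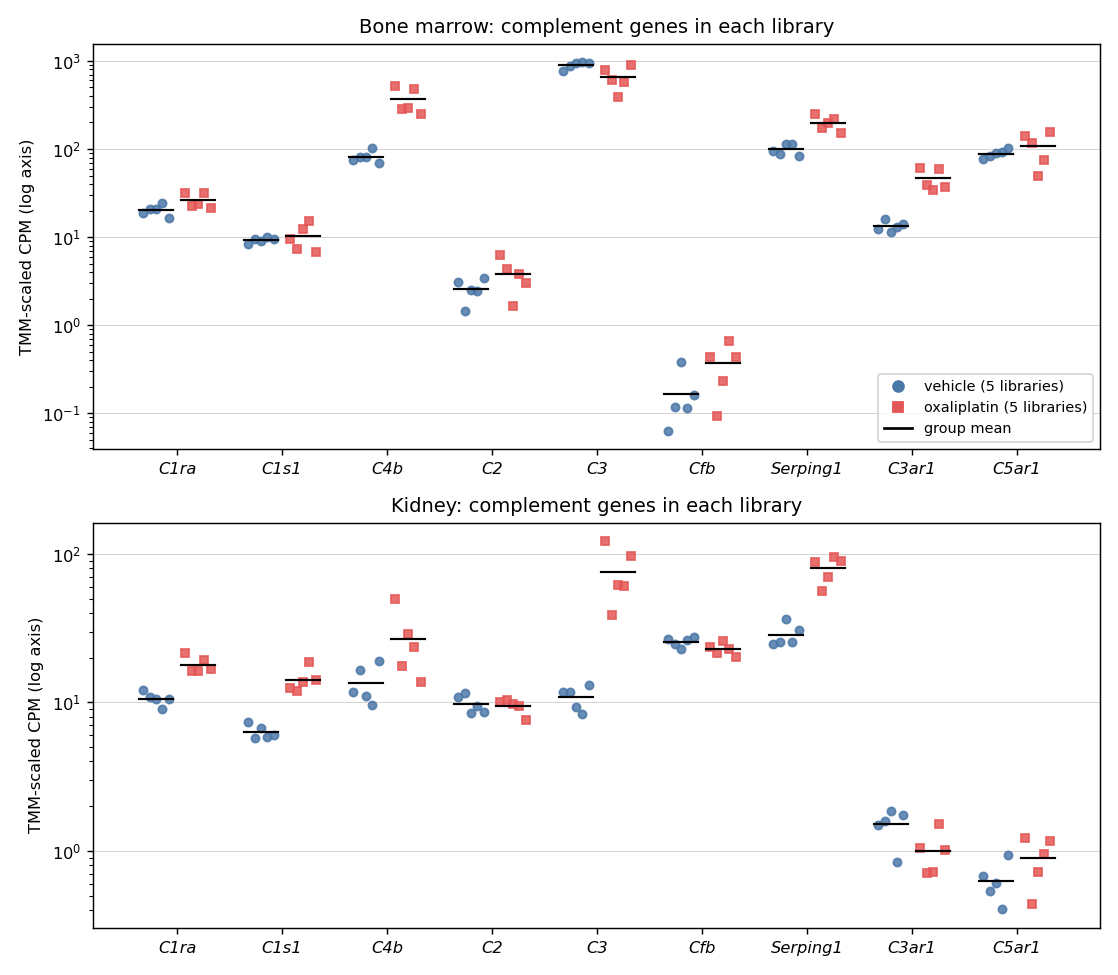
TMM-scaled CPM on a log axis for the 9 complement genes in each library of bone marrow (top) and kidney (bottom), with vehicle as blue circles, oxaliplatin as red squares and the group mean as a line. In bone marrow the 5 red squares of C4b, Serping1 and C3ar1 lie above all blue circles, and in kidney those of C1ra, C1s1, C3 and Serping1 do.

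The tissue labels fitted the defining markers. Slc34a1, the phosphate transporter of the proximal tubule, averaged 8524 CPM in vehicle kidney, and the summed proximal tubule markers lay between 3.61 and 5.51 CPM in vehicle marrow. Ngp, a granule protein of maturing neutrophils, averaged 5799 CPM in vehicle marrow, and the 11 neutrophil markers together reached at most 3.33 CPM in any kidney library. Some marrow libraries stood apart after oxaliplatin. Summed neutrophil markers were 9742 and 11669 CPM in oxaliplatin libraries 3 and 4, against 22192 to 27918 CPM in the other 3 and 19638 to 23994 CPM with vehicle. Summed adipocyte markers were 443 CPM in oxaliplatin library 5, against 859 to 1766 CPM in the other 4 and 202 to 331 CPM with vehicle. In bulk tissue, fewer cells of a type and less RNA per cell cannot be told apart.

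C1ra and C1s1 encode the proteases that open the classical route, and their genes lie next to each other on chromosome 6 (GRCm38, 124512405 to 124523443 on the plus strand and 124530345 to 124542359 on the minus strand). In kidney both rose. C1ra was 12.1, 10.9, 10.5, 9.06 and 10.5 CPM in vehicle libraries 1 to 5 and 21.6, 16.2, 16.2, 19.2 and 16.7 CPM after oxaliplatin. The lowest treated library was above the highest vehicle library. This was a rise of 0.76 on the log2 scale (standard error 0.11, edgeR adjusted p = 6.8e-05). C1s1 was 7.39, 5.75, 6.74, 5.84 and 6.03 CPM with vehicle and 12.6, 11.9, 13.7, 18.7 and 14.1 CPM with oxaliplatin. Here too the groups were apart, and oxaliplatin library 4 was the highest. The log2 change was 1.16 (standard error 0.13, edgeR adjusted p = 9.9e-06), a 2.23-fold difference.

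In bone marrow neither protease gene was called. C1ra was 18.9, 20.7, 20.7, 24.3 and 16.5 CPM with vehicle and 31.4, 22.7, 23.8, 31.3 and 21.1 CPM with oxaliplatin, so that 2 treated libraries lay above all vehicle libraries and 3 overlapped them (log2 fold change 0.37, standard error 0.14, edgeR adjusted p = 0.063). For C1s1 the vehicle libraries spanned 8.36 to 10.1 CPM, whereas the treated libraries had 9.48, 7.30, 12.3, 15.4 and 6.85 CPM. The treated libraries thus scattered to both sides of the vehicle range. Their log2 fold change was 0.14 (standard error 0.21, edgeR adjusted p = 0.64), and it was -0.05 without oxaliplatin library 4.

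The mouse genome holds second copies of both genes, C1rb and C1s2. Of the 50-base words in C1ra transcripts, 48.0% also occur in C1rb, and 21.8% of those in C1s1 occur in C1s2. Reads that lie wholly within such stretches would not align uniquely and only unique alignments were counted, so the levels of both may be understated. The size of that loss was not measured. Neither copy was called in either tissue with the settings used throughout. Both passed in kidney with library size alone (edgeR adjusted p = 0.030 for C1rb and 0.041 for C1s2) and with at least 10 counts in every library (edgeR adjusted p = 0.035 and 0.046). In kidney C1rb averaged 0.832 CPM with vehicle and 1.25 CPM with oxaliplatin (log2 fold change 0.59, edgeR adjusted p = 0.071), and C1s2 0.707 and 1.10 CPM (0.63, edgeR adjusted p = 0.088). In bone marrow the log2 fold changes were 0.29 and -0.22. C1s1 also overlaps the antisense gene Gm16567, which had 0 counts in all 20 libraries. Whether the counting used strand is not given in the sources used here, so without strand the reads of that pair could not be told apart.

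C4b encodes complement C4, whose larger fragment binds covalently to surfaces, and it lies on chromosome 17 (GRCm38, 34728380 to 34743882, minus strand) among the genes of the major histocompatibility complex. It had the largest rise of the tested members in bone marrow. Vehicle libraries held 74.7, 81.5, 80.5, 104 and 69.7 CPM and oxaliplatin libraries 522, 286, 290, 479 and 247 CPM. Every treated library was more than 100 CPM above every vehicle library, and treated libraries 1 and 4 were the highest. C4b thus rose 4.45-fold (log2 fold change 2.15, standard error 0.21, edgeR adjusted p = 8.7e-06). Without oxaliplatin library 3, 4 or 5 the log2 value was 2.23, 2.04 and 2.30.

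In kidney C4b did not pass. The values were 11.8, 16.5, 11.0, 9.58 and 19.2 CPM with vehicle and 49.5, 17.7, 28.8, 23.6 and 13.8 CPM with oxaliplatin. Libraries 2 and 5 of the treated group lay within the vehicle range and library 1 far above it. The log2 fold change was 0.97 (standard error 0.37, edgeR adjusted p = 0.084). Without oxaliplatin library 1 it was 0.63 (edgeR adjusted p = 0.11), and without library 5 it was 1.14 (edgeR adjusted p = 0.047). DESeq2 gave 0.96 with an adjusted p of 0.037, and library size alone gave 1.10 (edgeR adjusted p = 0.047), so the call of C4b in kidney changed with 1 library, the tool and the scaling.

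C4a, the neighbouring copy known as sex-limited protein, shares 34.6% of the words of C4b. In bone marrow C4a rose from 4.45 ± 0.724 to 14.7 ± 5.44 CPM (SD, n = 5 each, log2 fold change 1.72, edgeR adjusted p = 9.2e-05). In kidney it fell from 6.86 ± 2.75 to 2.30 ± 0.914 CPM (-1.58, edgeR adjusted p = 0.0030), opposite in sign to C4b in the same libraries. The lowest vehicle kidney held 4.29 CPM of C4a and the highest treated kidney 3.34 CPM, so the groups were apart.

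C2 encodes the protease that joins C4b in the classical C3 convertase, and Cfb encodes factor B, its counterpart in the alternative route. The genes lie end to end on chromosome 17 (GRCm38, 34862604 to 34898265 and 34856374 to 34862518, minus strand). The annotation also joins them in Gm20547, a readthrough gene that shares 38.7% of the words of C2 and 73.0% of those of Cfb. Gm20547 had 0 counts in all 20 libraries, and since reads that fit more than 1 gene were not counted, the levels of C2 and Cfb may be understated and are not set against those of other genes. C2 also overlaps Zbtb12 on the other strand, which had 200 to 548 counts per marrow library and 132 to 296 per kidney library.

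Neither gene was called in either tissue. C2 in bone marrow was 3.07, 1.45, 2.49, 2.45 and 3.44 CPM with vehicle and 6.19, 4.36, 1.63, 3.85 and 3.05 CPM with oxaliplatin (log2 fold change 0.56, standard error 0.33, edgeR adjusted p = 0.22). Treated library 3 was the low value, and without it the log2 fold change was 0.76 with an edgeR adjusted p of 0.041. Without treated library 1, the highest, the value for C2 was 0.32 with an edgeR adjusted p of 0.49. In kidney C2 was 9.82 ± 1.36 CPM with vehicle and 9.45 ± 1.06 CPM with oxaliplatin (SD, n = 5 each), a log2 fold change of -0.06 with a standard error of 0.12. Its sign turned when vehicle library 2 or oxaliplatin library 5 was left out. Cfb had 2 to 12 counts per library with vehicle and 3 to 30 with oxaliplatin in bone marrow, too few to be tested there. In kidney Cfb was 25.7 ± 1.82 and 22.8 ± 2.19 CPM (SD, n = 5 each, log2 fold change -0.17, standard error 0.08, edgeR adjusted p = 0.13), and 3 of 5 treated libraries were below all vehicle libraries.

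C3 encodes the central component on which all routes converge, and it lies on chromosome 17 (GRCm38, 57203970 to 57228136, minus strand). RefSeq's promoter table held 5 of the 9 genes, and the stretch before C3 is shown because C3 had the largest change of the members in kidney, with the receptor gene C3ar1, which had a large change in bone marrow, for contrast. Both are the 250 bases before the start site in GRCm38.p6, read on the minus strand, chr17:57228137-57228386 for C3 and chr6:122856158-122856407 for C3ar1. Capitals mark matches to TTNNGNAA, a pattern bound by C/EBP factors, in C3 and to TGACTCA, the AP-1 pattern, in C3ar1.
C3: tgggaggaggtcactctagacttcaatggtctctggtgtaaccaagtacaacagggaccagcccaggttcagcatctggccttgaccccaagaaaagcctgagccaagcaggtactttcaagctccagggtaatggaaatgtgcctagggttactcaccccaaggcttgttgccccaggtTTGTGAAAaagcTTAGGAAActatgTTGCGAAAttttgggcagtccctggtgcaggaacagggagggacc
C3ar1: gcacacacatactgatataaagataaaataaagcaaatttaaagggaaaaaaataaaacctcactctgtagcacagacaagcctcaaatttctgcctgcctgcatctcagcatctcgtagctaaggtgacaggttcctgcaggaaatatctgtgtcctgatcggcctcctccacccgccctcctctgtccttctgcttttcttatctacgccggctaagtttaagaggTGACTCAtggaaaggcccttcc
In all 5 patterns were searched on both strands, which also included TTCNNNGAA for STAT factors, the interferon-stimulated response element and the NF-kB motif. The C3 stretch held TTNNGNAA at 3 places, 70 to 63, 58 to 51 and 45 to 38 bases before the start, and the third of these reads as a match on either strand. Among all 32851 promoters of the table, 36.8% held at least 1 such match. The C3ar1 stretch held TGACTCA from 22 to 16 bases before the start, as did 4.46% of all promoters somewhere in the window. TTNNGNAA also occurred before C1ra, C1s1 and C5ar1. The other 3 patterns occur in 7.02%, 2.98% and 0.356% of promoters, and these letters are not in the windows of the 5 genes. A match is a description of the letters only.

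Kidney C3 was 11.8, 11.8, 9.24, 8.29 and 13.04 CPM in vehicle libraries 1 to 5 and 122, 39.1, 61.5, 60.9 and 96.6 CPM after oxaliplatin. The lowest treated library, number 2, was still well above the highest vehicle library. The log2 fold change was 2.81 (standard error 0.33, edgeR adjusted p = 3.6e-04), and it stayed between 2.58 and 2.97 with each library left out in turn. In bone marrow C3 was far higher, with 763, 870, 936, 962 and 948 CPM in vehicle libraries and 787, 612, 386, 574 and 895 CPM in treated libraries. Treated libraries 2, 3 and 4 were below all vehicle libraries, and libraries 1 and 5 lay within their range. The log2 fold change was -0.46 (standard error 0.19, edgeR adjusted p = 0.078). Without oxaliplatin library 3 it was -0.32, and without library 5 it was -0.57 with an edgeR adjusted p of 0.019, which passes the p but not the 1.5-fold limit. With a covariate of Y-linked genes it was -0.78 (edgeR adjusted p = 0.0061), and C3 was then called lower. That covariate was itself lower on average in the treated marrow libraries, so it overlaps with treatment.

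C3 in bone marrow varied within groups with neutrophil and monocyte markers. Over the 10 marrow libraries, with each group's mean subtracted, the correlation of log2 C3 with the log2 sum of 11 neutrophil markers was r = 0.90 (n = 10 libraries). This is a description over libraries that share scaling and depth. The 5 monocyte markers gave r = 0.91, as did the tubular injury list, which in marrow was led by the neutrophil granule gene Lcn2. The collecting duct list, which summed to only 1.68 to 6.57 CPM in the marrow libraries, gave 0.83 and the macrophage list 0.72. The link was thus not particular to 1 list. None of the 11 neutrophil markers was called in bone marrow, and their sum averaged 22172 CPM with vehicle and 18964 CPM with oxaliplatin. In kidney the 11 markers were near 0, with 0.518 to 1.29 CPM in vehicle and 1.26 to 3.33 CPM in treated libraries in sum. Ly6g, Mpo and Elane had at most 3 counts in every kidney library. Erythroid markers, whose sum in treated kidneys was 100.8, 586, 228, 550 and 91.3 CPM, were lowest in the 2 libraries with the highest C3, numbers 1 and 5, and gave r = -0.85 with C3 over the 10 kidney libraries, the strongest of the 15 lists there. The 6 hepatocyte markers summed to 201 CPM in vehicle and 103 CPM in treated kidney, with Ttr, the most abundant, and Apoh called lower and Fgb higher. Ttr alone was 153 CPM of that sum in vehicle kidney and 47.4 CPM in treated kidney. Which kidney cells expressed these markers was not examined, and the part of any cell type in the C3 values was not tested.

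Of the 5 genes whose level followed C3 most closely across the 10 marrow libraries, after the group means were subtracted, 4 were Slc2a3, Cd44, Mboat7 and Bach1, with r from 0.989 to 0.985 among 14648 genes compared. In kidney the 5 were Ces2e, Gimap1, St13, Ikzf4 and Rgs4, with r from 0.951 to 0.928 among 13634 genes. No gene was shared between these lists of 5. Of the kidney genes, Ces2e (log2 fold change 2.89), Rgs4 (3.83) and Ikzf4 (0.62) were called higher as well.

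Serping1 encodes C1 inhibitor, the plasma serpin that inactivates C1r and C1s, and it lies on chromosome 2 (GRCm38, 84765387 to 84775444, minus strand). None of its 50-base words occurs in another gene. It was the member called in both tissues. In bone marrow it was 94.5, 88.7, 113, 115 and 83.0 CPM with vehicle and 247, 171, 197, 217 and 150 CPM with oxaliplatin (log2 fold change 0.99, standard error 0.14, edgeR adjusted p = 1.4e-04). In kidney it was 24.9, 25.7, 36.4, 25.4 and 31.0 CPM with vehicle and 88.7, 56.2, 69.7, 96.0 and 90.2 CPM with oxaliplatin (log2 fold change 1.48, standard error 0.16, edgeR adjusted p = 5.8e-05). In each tissue the lowest treated library was above the highest vehicle library. With a 2-fold limit the kidney call remained and the marrow call, at 1.99-fold, was lost.

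C3ar1, on chromosome 6 (GRCm38, 122847138 to 122856161, minus strand), encodes the C3a receptor of myeloid cells. It was 12.2, 15.9, 11.3, 12.9 and 14.0 CPM in vehicle marrow and 61.5, 39.2, 34.5, 59.8 and 37.1 CPM in treated marrow. The treated libraries were all more than 2-fold above the highest vehicle library. The rise was 3.50-fold (log2 fold change 1.81, standard error 0.18, edgeR adjusted p = 7.5e-06), and on the log2 scale it was 1.90, 1.70 and 1.91 without treated library 3, 4 or 5. In kidney C3ar1 was scarce, with 20 to 43 counts per library. It was 1.51 ± 0.395 CPM with vehicle and 0.999 ± 0.326 CPM with oxaliplatin (SD, n = 5 each, log2 fold change -0.59, standard error 0.28, edgeR adjusted p = 0.12), and the groups overlapped.

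C5ar1, on chromosome 7 (GRCm38, 16246743 to 16259540, minus strand), encodes the C5a receptor that draws in neutrophils. In bone marrow it was 77.6, 83.0, 89.3, 91.4 and 103 CPM with vehicle and 140, 118, 48.8, 75.7 and 154 CPM with oxaliplatin. Treated libraries 3 and 4 lay below all vehicle libraries and the other 3 above them, and the log2 fold change was 0.27 (standard error 0.26, edgeR adjusted p = 0.46). With a covariate of Y-linked genes the value for C5ar1 was -0.18. The order of its treated libraries followed the neutrophil marker sum, with r = 0.965 across the 10 libraries after subtraction of group means. The tubular injury list gave 0.982, monocyte markers 0.94, the collecting duct list 0.857 and macrophage markers 0.764. In kidney C5ar1 had 10 to 39 counts per library and averaged 0.629 ± 0.196 and 0.899 ± 0.326 CPM (SD, n = 5 each, log2 fold change 0.51, standard error 0.34, edgeR adjusted p = 0.27).

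The members did not follow each other uniformly. In bone marrow the median r over 28 pairs, with group means subtracted and n = 10 libraries, was 0.391. C4b, C1ra and Serping1 were close to each other, with r = 0.957 for C4b and C1ra and 0.859 for C4b and Serping1, and C3 was close to C5ar1, with r = 0.951. In kidney the median over 36 pairs was 0.358, and the highest was C3 with C5ar1, at r = 0.879. These values share libraries, depth and scaling and carry no test.

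Per kilobase of exon, vehicle marrow held 174 ± 15.9 CPM of C3, followed by Serping1 at 42.5 ± 6.21, C5ar1 at 34.5 ± 3.66, C4b at 14.4 ± 2.30, C1ra at 6.78 ± 0.962, C3ar1 at 3.08 ± 0.404 and C1s1 at 2.97 ± 0.201 (SD, n = 5). The ranges of Serping1 and C5ar1 overlapped, as did those of C3ar1 and C1s1. C2 and Cfb are left out of this order, and the levels of C1ra, C1s1 and C4b may lack reads from stretches shared with their copies. Vehicle kidney had another order on the same scale, with Serping1 at 12.3 ± 2.13, C1ra at 3.56 ± 0.361, C4b at 2.39 ± 0.71, C3 at 2.11 ± 0.386, C1s1 at 2.03 ± 0.223, C3ar1 at 0.350 ± 0.0918 and C5ar1 at 0.245 ± 0.0764 (SD, n = 5). There C4b, C3 and C1s1 overlapped each other, C4b overlapped C1ra, and C3ar1 overlapped C5ar1. After oxaliplatin, kidney C3 stood at 14.8 ± 6.41 CPM per kilobase, below Serping1 at 34.5 ± 7.16 and above the other members listed on average, although its range overlapped that of C4b.

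**Figure D2:**
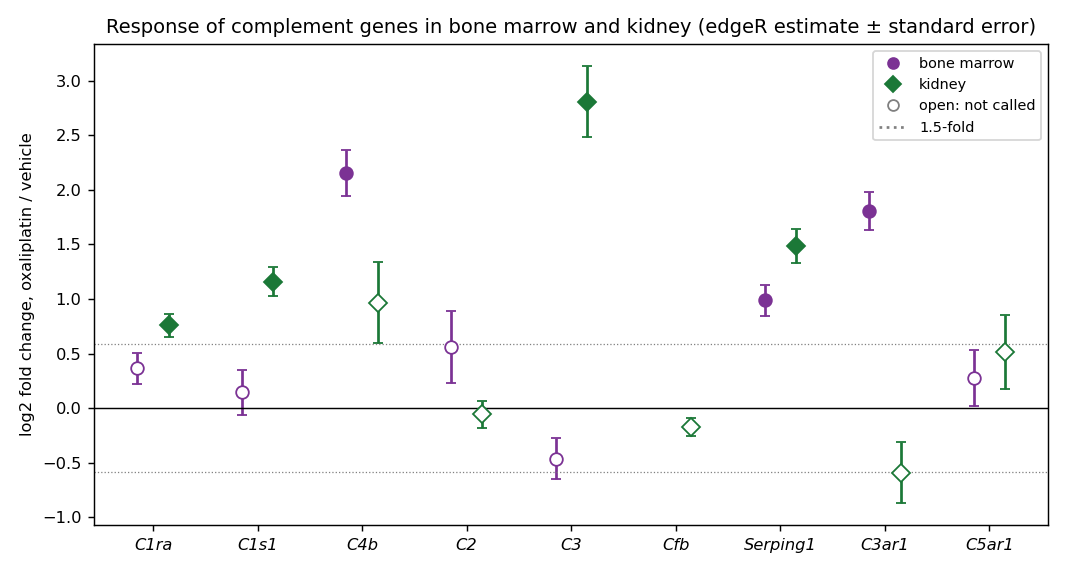
Log2 fold change of oxaliplatin over vehicle for the 9 complement genes, with bone marrow as purple circles and kidney as green diamonds, bars for the edgeR standard error, filled symbols for called genes and dotted lines at 1.5-fold. C3 stands at 2.81 in kidney and -0.46 in bone marrow, C3ar1 at -0.59 and 1.81, and Serping1 is filled in both tissues. Cfb has no marrow symbol because it was not tested there.

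Whether the response differed between the tissues was tested directly, as the kidney log2 fold change minus that of marrow in 1 model over all 20 libraries. The difference passed an adjusted p of 0.05 for 5 of the 9 members, against 30.1% of 24321 genes tested. The 5 include Cfb, which was too scarce to be tested in bone marrow and entered this fit through its kidney counts. C3 responded more in kidney, with a difference of 3.22 (standard error 0.33, edgeR adjusted p = 3.0e-07), and so did C1s1 (0.94, standard error 0.26, edgeR adjusted p = 0.0090). C3ar1 responded more in bone marrow (-2.45, standard error 0.31, edgeR adjusted p = 2.9e-06), as did C4b (-1.24, standard error 0.40, edgeR adjusted p = 0.024). Cfb passed at -1.42 (edgeR adjusted p = 0.017), on the 2 to 30 marrow counts given above, and not without marrow oxaliplatin library 4 (edgeR adjusted p = 0.060). C4b did not pass without kidney vehicle library 5 (edgeR adjusted p = 0.053).

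For the other 4 members a difference between the tissues was not detected. Serping1 differed by 0.43 (standard error 0.21, edgeR adjusted p = 0.13), and without kidney oxaliplatin library 2 by 0.53 with an edgeR adjusted p of 0.049. C1ra differed by 0.33 (edgeR adjusted p = 0.18) and C5ar1 by 0.20 (edgeR adjusted p = 0.77). C2 differed by -0.66 (edgeR adjusted p = 0.16), which was -0.84 with an edgeR adjusted p of 0.029 without marrow oxaliplatin library 3. Values that miss the threshold do not show that the responses were equal.

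The wider pathway was read from a list of 51 complement genes that included the 9. In bone marrow 38 of the 51 were tested, of which 11 were called higher, 2 lower and 25 not, beside 23.3% called of all tested genes. In kidney 37 were tested, of which 11 were called higher, 8 lower and 18 not, beside 11.5%. The median log2 fold change over the tested list was 0.28 in bone marrow and 0.08 in kidney. Both tissues raised Cfd, C7 and Serping1, although C7 in bone marrow had few counts and passed the count filter through its treated libraries. C1qa, C1qb, C1qc and C4a were higher in bone marrow and lower in kidney, and no gene was lower in bone marrow and higher in kidney. The difference between tissues passed for 19 of 45 genes tested, beside 30.1% of all genes, and in 6 of the 19 the kidney log2 fold change was above that of bone marrow.

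C1qa, C1qb and C1qc, side by side on chromosome 4, encode the 3 chains of C1q and are macrophage genes in most tissues. C1qa was 118, 118, 127, 162 and 99.6 CPM in vehicle marrow and 388, 413, 224, 272 and 311 CPM in treated marrow. In kidney it was 10.6, 10.1, 9.24, 9.94 and 11.0 CPM with vehicle and 7.54, 4.31, 5.64, 5.65 and 3.66 CPM with oxaliplatin. The groups were apart in both tissues, in opposite directions, with log2 fold changes of 1.37 (edgeR adjusted p = 5.8e-05) and -0.93 (edgeR adjusted p = 3.6e-04). C1qb and C1qc moved alike, by 1.17 and 1.14 in bone marrow and by -0.81 and -0.96 in kidney. The differences between the tissues were -2.35, -2.04 and -2.16, with edgeR adjusted p of at most 2.4e-07. In kidney the proteases C1ra and C1s1 thus rose in the same libraries in which their carrier C1q fell.

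Macrophage markers moved with C1q and C3ar1 in part. In bone marrow the 10 macrophage markers summed to 796 to 1053 CPM with vehicle and to 2229, 1943, 814, 1576 and 1535 CPM with oxaliplatin. Of them Csf1r, Mrc1 and Siglec1 were called higher, Timd4 and Marco lower, and 5 not. Csf1r was the most abundant with vehicle and Mrc1 with oxaliplatin. Treated library 3 lay within the vehicle range of the sum, while its C1qa (224 CPM) and C3ar1 (34.5 CPM) were above every vehicle library. Within groups the macrophage sum of the 10 marrow libraries gave r = 0.862 with C1qa, 0.849 with C1qb, 0.900 with C1qc and 0.502 with C3ar1. No other list came as close to the C1q genes, and hepatocyte markers were next for C1qc (0.857). Endothelial and stromal markers came closer to C3ar1 (0.65 and 0.612). In the 10 kidney libraries the macrophage sum gave -0.40, -0.06, -0.05 and 0.05, and monocyte markers gave 0.61, 0.72, 0.68 and 0.58. Other lists came closer there, with 0.798 for B cell markers and C1qa, 0.762 for the tubular injury list and C1qc, and 0.716 for stromal markers and C3ar1. In kidney the macrophage sum was 159 to 185 CPM with vehicle and at most 132 CPM with oxaliplatin. Adgre1 and Csf1r were called lower there, Mrc1 and Siglec1 higher, Csf1r was the most abundant with vehicle and Mertk with oxaliplatin, and Marco and Timd4 had at most 3 counts in every library. The 5 monocyte markers summed to 723 and 945 CPM in vehicle and treated marrow, and F13a1 alone went from 231 to 524 CPM. F13a1 and Fcgr4 were called higher there, while Ly6c2, Ccr2 and Ms4a6c averaged lower and were not called. In kidney the monocyte markers summed to 6.88 and 7.96 CPM, with 1 called higher and 2 lower. Their part in the complement values was not tested.

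**Figure D3:**
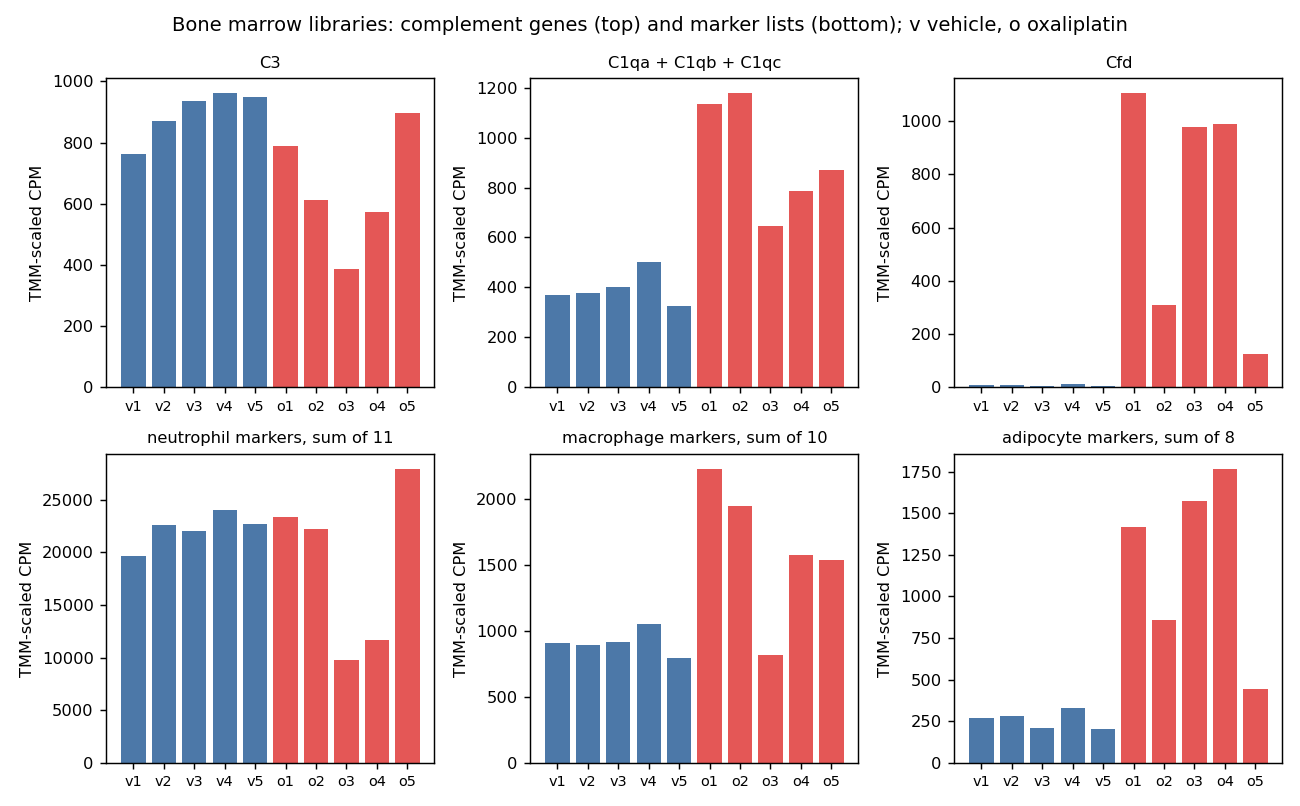
TMM-scaled CPM in each bone marrow library (v vehicle in blue, o oxaliplatin in red) of C3, of C1qa, C1qb and C1qc summed, and of Cfd, above the sums of 11 neutrophil, 10 macrophage and 8 adipocyte markers. C3 is lowest in o3 (386 CPM), where neutrophil markers are also lowest (9742 CPM), and Cfd is lowest among the treated libraries in o5 (124 CPM), as are adipocyte markers (443 CPM).

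Cfd, which encodes factor D or adipsin, the protease that activates factor B and a product of fat cells, had the largest change of the list in both tissues. In bone marrow it was 7.6, 7.22, 3.62, 12.7 and 3.77 CPM with vehicle and 1106, 309, 980, 992 and 124 CPM with oxaliplatin. This was about 100-fold (log2 fold change 6.65, standard error 0.71, edgeR adjusted p = 4.1e-05). In kidney it was 7.24, 5.30, 0.734, 1.29 and 3.89 CPM with vehicle and 84.9, 12.9, 17.4, 21.1 and 48.1 CPM with oxaliplatin (log2 fold change 3.30, standard error 0.76, edgeR adjusted p = 0.012). The response was larger in bone marrow (difference -3.42, edgeR adjusted p = 0.012). Factor B itself, encoded by Cfb, did not pass in kidney, and Cfp, which encodes properdin, was not called in either tissue.

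Most adipocyte markers tested were called higher in each tissue, as Cfd was. Within groups their sum gave r = 0.972 with Cfd over the 10 marrow libraries and r = -0.156 over the 10 kidney libraries. In bone marrow 7 of 8 were called higher, all but Cd36, beside 11.6% of all tested genes. Lep, among the 7, had 0 to 5 counts per vehicle library and 88 to 782 per treated library. It passed the count filter only through its treated libraries. The sum of the 8 went from 202 to 331 CPM with vehicle to 1415, 859, 1570, 1766 and 443 CPM with oxaliplatin. Cd36 was the most abundant with vehicle and Fabp4 with oxaliplatin. Cidec, a lipid droplet protein, was 0.605 and 118 CPM. In kidney 5 of 7 tested were called higher, beside 7.68% of all tested genes, among them Adipoq at 0.558 and 3.51 CPM. Cd36, which the tubule also expresses and which made up most of the sum, was lower at 304 and 128 CPM, so the sum fell from 331 to 210 CPM. Whether fat cells account for Cfd was not tested.

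Of the other genes named in bone marrow, C6 and C7 encode terminal pore components. C6 averaged 3.79 ± 1.5 and 10.2 ± 5.50 CPM (SD, n = 5 each, log2 fold change 1.43, edgeR adjusted p = 0.012), and treated library 3 at 4.43 CPM lay within the vehicle range. C7 had 2 to 10 counts with vehicle and 14 to 38 with oxaliplatin (1.84, edgeR adjusted p = 0.0099). With so few vehicle counts it passed the count filter through its treated libraries. Clu encodes clusterin, which restrains the cascade in fluid, and it rose from 123 ± 23.0 to 207 ± 23.1 CPM (0.75, edgeR adjusted p = 6.3e-04).

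The genes that fell in bone marrow were Cd59b and Cr2. Cd59b, a membrane inhibitor of the pore, fell from 3.46 ± 0.686 to 1.30 ± 0.338 CPM (SD, n = 5 each, log2 fold change -1.41, edgeR adjusted p = 4.8e-04). Cr2, the C3d receptor of B cells, fell from 14.1 ± 3.12 to 5.65 ± 1.53 CPM (-1.32, edgeR adjusted p = 3.6e-04). All 5 B cell markers were called lower in the same libraries, and their sum averaged 350 CPM with vehicle and 61.4 CPM with oxaliplatin, led by Pax5 and by Cd79a. The part of B cells in the Cr2 value was not tested. No other membrane regulator was called in bone marrow.

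**Figure D4:**
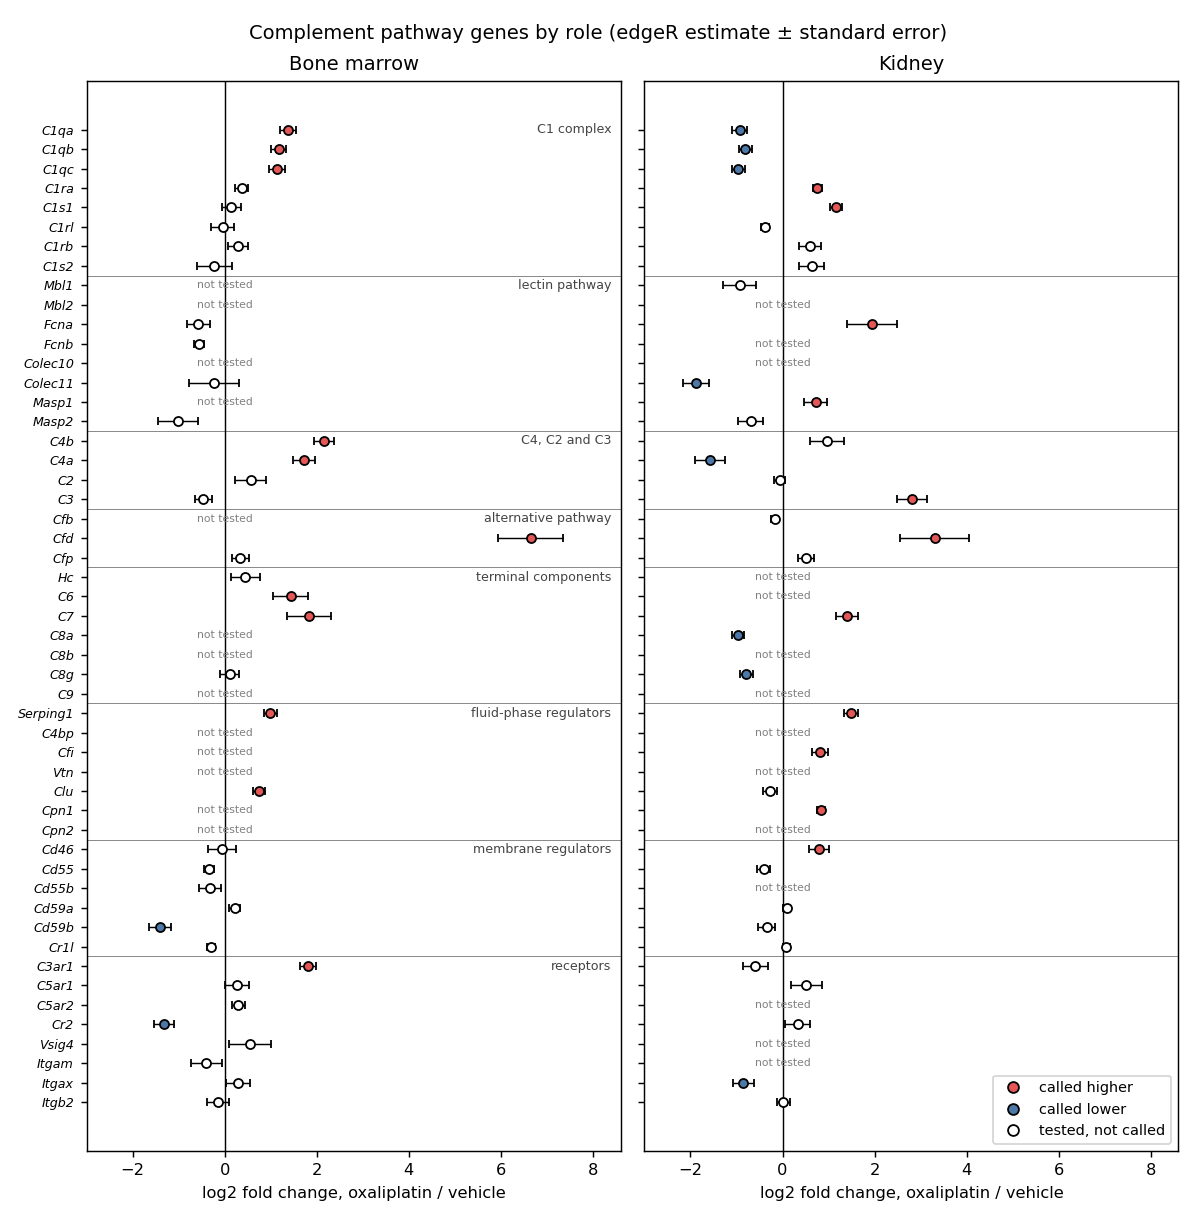
Log2 fold change of oxaliplatin over vehicle with the edgeR standard error for the 51 listed complement genes by role, in bone marrow (left) and kidney (right), with red for called higher, blue for called lower and open circles for tested genes that were not called. C1qa, C1qb and C1qc are red on the left and blue on the right, and Cfd has the largest value in each panel, 6.65 and 3.30.

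In kidney 2 C1 complex genes were called higher and 3 lower, 2 lectin genes higher and 1 lower, 1 terminal gene higher and 2 lower, and 3 fluid-phase regulators higher. C7 rose from 4.42 ± 0.965 to 11.6 ± 4.20 CPM (SD, n = 5 each, log2 fold change 1.40, edgeR adjusted p = 7.3e-04), while C8a, another pore component, fell from 28.2 ± 1.09 to 14.4 ± 3.62 CPM (-0.97, edgeR adjusted p = 1.1e-04). Colec11, a collectin that starts the lectin route and is made by tubule cells, fell from 1.92 ± 0.393 to 0.519 ± 0.173 CPM (-1.87, edgeR adjusted p = 1.2e-04). Fcna, a ficolin, was called higher on 0 to 7 counts with vehicle and 10 to 14 with oxaliplatin. It passed the count filter only through its treated libraries, so the call carries little weight. Cpn1, the carboxypeptidase that trims C3a and C5a, rose from 78.3 ± 7.47 to 140 ± 17.0 CPM (0.84, edgeR adjusted p = 4.7e-06), and Cfi, which encodes the C3b-cutting factor I, from 4.53 ± 0.920 to 7.96 ± 1.81 CPM (0.81, edgeR adjusted p = 0.0015). Itgax, a chain of complement receptor 4, fell from 3.05 ± 0.766 to 1.69 ± 0.395 CPM (-0.85, edgeR adjusted p = 0.0100), and its groups overlapped through vehicle library 1.

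Stromal and endothelial markers were higher on average in the treated kidneys, in which C1ra, C1s1 and Serping1 rose. The 8 stromal markers summed to 290 to 329 CPM with vehicle and 402 to 524 CPM with oxaliplatin, with 5 called higher, among them Col1a1 (log2 fold change 1.83), while Cxcl12, the most abundant, averaged 173 CPM with vehicle and 146 CPM with oxaliplatin and was not called. C1s1 followed that sum within groups, with r = 0.80 over 10 libraries, whereas Serping1, C1ra and C3 gave r = 0.42, 0.16 and -0.14. Serping1 was closest to the adipocyte sum, with r = 0.78, a sum that in kidney was mostly Cd36. The 6 endothelial markers summed to 355 and 486 CPM on average, with Pecam1 and Cdh5 higher and Eng the most abundant. That sum gave r = 0.59 with Serping1, 0.14 with C1s1 and -0.01 with C1ra. Of 6 tubular injury markers Lcn2 was called higher (1.51 and 6.29 CPM), Havcr1 was not called, Krt18 was the most abundant, and the sum averaged 28.2 and 46.9 CPM. In bone marrow the stromal sum averaged 1767 and 2334 CPM, with Col3a1 and Dcn higher, and the endothelial sum 314 and 471 CPM, with Cdh5 and Emcn higher and Eng the most abundant. The other 6 stromal and 4 endothelial markers were not called. Most of the stromal sum was Cxcl12, at 1231 and 1731 CPM. Of the markers not called, only Lepr (80.9 and 57.7 CPM) and Tek (16.4 and 12.5 CPM) averaged lower. C4b followed the marrow endothelial sum with r = 0.87 and the stromal sum with r = 0.79. The part of these cells in the complement values was not tested.

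The remaining lists were read for completeness. Erythroid markers fell in bone marrow from 31238 to 4782 CPM in sum, with all 6 called lower and Hba-a1 the most abundant, and in kidney they averaged 307 ± 47.5 and 311 ± 241 CPM (SD, n = 5 each). T cell markers averaged 94.3 and 46.9 CPM in sum in bone marrow and 4.30 and 2.62 CPM in kidney, led by Cd4 and by Cd3e. In bone marrow Cd4 alone was called, lower at 78.6 and 28.5 CPM. Cd3e, Cd8a and Trac averaged higher there and Cd3d lower, all without a call. B cell markers in kidney averaged 2.41 and 0.951 CPM, led by Cd79b. Hepatocyte markers in bone marrow, led by Alb, averaged 1.92 and 3.32 CPM. Kidney segment markers were at 16207 and 14221 CPM for the proximal tubule (Slc34a1), 4755 and 5550 CPM for the loop and distal tubule (Umod), 443 and 561 CPM for the collecting duct (Aqp2) and 235 and 381 CPM for podocytes (Podxl) in vehicle and treated kidney. In vehicle and treated marrow the loop and distal tubule list gave 8.72 and 1.40 CPM (Slc12a3), the collecting duct list 4.94 and 3.99 CPM (Avpr2) and the podocyte list 8.48 and 81.0 CPM, nearly all Podxl, which blood cells and endothelium also express. The proximal tubule list gave 4.51 and 2.81 CPM in marrow (Slc5a2 with vehicle, Cubn with oxaliplatin) and the tubular injury list 2073 and 2211 CPM, led by Lcn2.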

How the data were processed

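Bulk RNA of 2 tissues, bone marrow and kidney, was sequenced in 5 libraries per tissue and treatment. The authors deposited 1 table of raw gene counts per tissue, from reads aligned to the mouse genome of Ensembl release 101 with STAR and counted where they aligned uniquely and unambiguously, with no normalization. The methods name a SMARTer library kit and the sample records describe removal of ribosomal RNA with random hexamer priming, and these sources differ on the library chemistry. The processing notes also list Salmon and featureCounts without their role.

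Each table had 55774 lines. After removal of repeated identifiers, which had the same counts, and of 1 incomplete line, 55486 genes remained. Library sizes are sums over these genes. Positions came from GENCODE mouse release 21 on GRCm38, which covers 55141 of the identifiers, and promoters from the RefSeq table of GRCm38.p6. Motif letters and 50-base words were matched exactly.

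Each tissue was fitted alone in edgeR 4.0.16 (R 4.3.3) with TMM scaling, after filterByExpr with its minimum count set to 10. The quasi-likelihood test was robust and two-sided, and p values were adjusted over all genes tested by Benjamini-Hochberg. The tissue by treatment difference was fitted in all 20 libraries. Unless another tool is named, adjusted p values are from edgeR. A floor of 3 counts corresponds to 0.0668 to 0.0975 CPM in bone marrow and 0.09 to 0.13 CPM in kidney, and covers counting error only. Within groups, 2 libraries differed with a chi-square of at least 7.51 per degree of freedom, so no library repeated another within counting noise. The labels call the libraries biological replicates, and p values measure the spread between them.

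The members, the 51-gene complement list, the 15 marker lists and the tests were chosen with earlier results of these data known. Named genes are the 9 members, their copies C4a, C1rb and C1s2, the C1q genes, in each tissue up to 8 further called genes of the list with the greatest log2 fold change, the most abundant and undetected markers of each list, and the 5 genes most like C3 among genes whose log2 CPM averaged at least 1. Other markers, Cfp, the overlapping genes and the neighbours in a marker list that were called were named after their values were seen. Other genes that the rule names are not reported here.

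The alternatives were DESeq2 1.42.0, median ratio factors, library size alone, no filter, at least 10 counts in every library, a covariate of Y-linked genes, the replicate number as a block, no fold limit, a 2-fold limit, hemoglobin genes left out in bone marrow, and single libraries left out. The main fit of each tissue and that of the difference were also tested on simulated data, and the alternatives were not. With 200 changed genes, edgeR called 100% of those at a log2 change of 1 for bone marrow (22103 genes, 3 false calls) and 100% for kidney (19054 genes, 6 false calls). Of differences between tissues at a log2 size of 1, 91.4% were called among 17507 genes (13 false calls). The simulated counts had the same spread for every gene, and only well-counted genes were changed. The shares called therefore do not carry over to scarce genes or to genes that varied widely between treated libraries, such as Cfd and C5ar1. Figures were drawn with matplotlib 3.10.9.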

Additional observations from a re-analysis of the deposited data

Results flagged for a closer look

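In 4 of the 88 groups of 5 libraries that were examined for the named genes, 1 library lay far from the other 4, and chance alone gives about 1 in 20. C4a in vehicle marrow library 1 was 5.73 CPM, against 3.94 to 4.25 CPM in the others. Itgax in vehicle kidney library 1 was 1.72 CPM, against 3.20 to 3.69 CPM. Cfi was 6.13 CPM in vehicle kidney library 3, against 3.86 to 4.41 CPM, and 11.2 CPM in treated kidney library 1, against 6.83 to 7.47 CPM. Without these libraries the calls of C4a, Itgax and Cfi stood.

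For 16 of the 27 named complement genes the response to oxaliplatin differed between the tissues in edgeR's test of the difference, beside 30.1% of all genes tested. Part of the 27 were named for a large change in 1 tissue, which favours a difference. Values are the kidney log2 fold change minus that of bone marrow. Those above 0 were C3 at 3.22, Fcna at 2.47, Cr2 at 1.60, Cd59b at 0.99 and C1s1 at 0.94. The other 11 were below 0, with Cfd at -3.42, C4a at -3.35, C3ar1 at -2.45, C1qa at -2.35, C1qc at -2.16, C1qb at -2.04, Colec11 at -1.68, Cfb at -1.42, C4b at -1.24, Itgax at -1.21 and Clu at -1.08. The values of Cfb, Colec11 and Fcna rest on few counts in 1 of the tissues. The difference of Colec11 lost its call in 12 of 26 refits, that of Cfb in 2 of 26 and that of C4b in 2 of 27. Extraction differed between the tissues and cannot be told apart from them.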

How the results depend on the processing

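Of 70 gene values recomputed, 54 kept their direction and their side of the threshold under every refit (the fold limits were applied to the counts alone), and of 1469 alternative values 1431 did, 16 lost and 12 gained the call, and 10 changed sign. The number of members called ranged from 2 to 4 in bone marrow, from 3 to 5 in kidney and from 4 to 6 for the difference between tissues. The 51-gene list had 2 genes lower in bone marrow, but 6 with the Y-linked covariate and 5 with no fold limit. In kidney 19 were called, 11 higher and 8 lower, but with a 2-fold limit 8, 6 and 2, which follows from the limit itself.

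Log2 fold changes that turned in sign, all of genes that were not called, were C1s1 in bone marrow (-0.0458 to 0.303 with single libraries left out, the former without oxaliplatin library 4), C5ar1 (-0.18) and C1s2 (0.17) in bone marrow with the Y-linked covariate, and C2 in kidney (0.0712 with library size alone, and -0.102 to 0.0217 with single libraries left out, above 0 without vehicle library 2 or oxaliplatin library 5). Differences between tissues turned for C6 (-0.39 to 0.12 with single libraries left out, above 0 without marrow vehicle library 2 or oxaliplatin library 1) and Cfi (-1.20 to 0.11, above 0 without marrow vehicle library 2 or 5). With the Y-linked covariate C3 in bone marrow passed at -0.78 (edgeR adjusted p = 0.0061). The difference of C4b did not pass with no filter (edgeR adjusted p = 0.069), and that of Serping1 passed with at least 10 counts in every library (0.042). That of Colec11 was lost with the Y-linked covariate and without any of 10 single libraries, while its value lay between -1.96 and -1.48 over all libraries left out singly. The causes were not tested.

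Libraries with the same number in vehicle and treated groups share only a number, since their deviations correlated between -0.15 and 0.23. With the replicate block 3 members were called in bone marrow, 4 in kidney and 4 for the difference, where Cfb (edgeR adjusted p = 0.059) and Colec11 (0.085) were lost. Depth limits Cfb and C7 in bone marrow, and Fcna, C3ar1 and C5ar1 in kidney, whose libraries held few counts.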
